A study of Drosophila melanogaster with 2 samples.

Results

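The weak promoter peaks were 3536 of the 30000 peaks called on the pooled replicates of an anti-GFP ChIP-seq experiment on CG1663. They were selected on 2 deposited values, the −log10 of the q-value and the position of the summit. The −log10 q-value of the pooled list stopped at 4.38, a value that 11965 peaks shared, and the 18035 peaks below it are called weak here and the others saturated. A peak was placed at a promoter when its summit lay within 500 bp of an annotated transcript start, which 3536 of the weak and 3620 of the saturated peaks did. The remaining 14499 weak and 8345 saturated peaks lay away from promoters. The windows around starts covered 13.6% of the bases of the chromosome arms, and held 19.6% of the weak and 30.3% of the saturated summits.

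Chromatin immunoprecipitation followed by sequencing recovers the DNA that an antibody pulls down with a protein, and peaks mark where that DNA piled up over a control. The material was whole pupae of Drosophila melanogaster at 24 hours with males and females pooled, from 1 transgenic line that stably expressed CG1663 with GFP at its C terminus, precipitated through GFP. The animals formed 1 group with 2 biological replicates, numbered 1 and 3, with no second genotype, treatment or stage, and no untagged line was analysed here. Chromatin was sonicated, with a labelled size range of 200 to 800, and each list of 30000 peaks was called against the same control file. A whole pupa mixes all tissues, so that a weak peak from every cell and a strong peak from few cells cannot be told apart. Peak lists hold no read totals and the depth is unknown.

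A promoter is the stretch around a transcript start where general transcription factors and RNA polymerase assemble. In flies, promoters of broadly expressed genes often carry the DNA replication element (DRE) or Motif 1, while many promoters of genes used at set times or in set tissues carry a TATA box or GAGA repeats, the latter bound by GAGA factor and CLAMP. ChIP peaks of transcription factors at promoters range from strong sites with a recognised sequence to faint ones at open chromatin, which makes agreement between replicates the usual measure of a faint peak.

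The sequence under the summit is shown for 8 members clear of annotated exons, each as the summit base with 50 bp to either side, read along the nearest gene's strand from RefSeq's Release 6 genome (dm6), positions counted from 1. Capitals mark any searched word of 6 or more bases, on either strand. The peaks at Hs6st, zld and lncRNA:CR46095 were among the strongest such peaks at genes reached only by weak peaks. The summits lay 155 bp upstream of Hs6st, which encodes a heparan sulfate sulfotransferase (chr3R:20008617-20008717, minus strand), 354 bp upstream of zld, which encodes the pioneer factor Zelda (chrX:19783852-19783952, minus strand), and 109 bp upstream of the long noncoding RNA gene (chr3R:24607112-24607212, plus strand). The peak at tio, a zinc finger gene, overlapped a peak of replicate 1 alone (chr2L:22019044-22019144, plus strand), and the peak 327 bp downstream of the start of lab, a Hox gene of the head, overlapped none in either replicate (chr3R:6663077-6663177, minus strand). Chosen after their values were seen, the last 3 were among the strongest members clear of exons with a GAGAGAG, a CACACACA and a TATCGATA word. They lay at mgl, which encodes the endocytic receptor Megalin (chrX:9496264-9496364, minus strand), at the Sox-family gene SoxN (chr2L:8825512-8825612, plus strand) and at Lamp1, which encodes a lysosomal membrane protein (chr2L:21573259-21573359, plus strand).
Hs6st: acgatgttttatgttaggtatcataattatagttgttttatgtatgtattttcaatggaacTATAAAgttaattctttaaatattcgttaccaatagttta
zld: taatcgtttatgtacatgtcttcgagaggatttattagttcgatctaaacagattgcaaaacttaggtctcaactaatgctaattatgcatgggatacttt
lncRNA:CR46095: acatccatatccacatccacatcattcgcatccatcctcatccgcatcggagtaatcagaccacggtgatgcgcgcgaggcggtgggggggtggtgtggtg
tio: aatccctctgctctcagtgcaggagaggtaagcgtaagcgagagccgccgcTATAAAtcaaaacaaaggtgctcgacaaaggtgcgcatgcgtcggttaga
lab: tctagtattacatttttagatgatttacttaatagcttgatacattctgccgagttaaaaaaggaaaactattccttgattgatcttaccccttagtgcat
mgl: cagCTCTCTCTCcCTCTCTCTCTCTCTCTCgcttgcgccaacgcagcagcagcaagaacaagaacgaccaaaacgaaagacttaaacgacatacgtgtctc
SoxN: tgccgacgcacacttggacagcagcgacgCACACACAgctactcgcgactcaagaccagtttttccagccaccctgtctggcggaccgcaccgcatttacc
Lamp1: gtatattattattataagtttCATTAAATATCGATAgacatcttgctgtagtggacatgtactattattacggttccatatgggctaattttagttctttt
The windows of Hs6st and tio each held TATAAA, that of mgl a run of CTCTC on the printed strand, and that of Lamp1 a CATTAAA running into TATCGATA. The windows of zld, lncRNA:CR46095 and lab held no searched word of 6 or more bases, which says only that these letters were not within 50 bp of the summit. Those of zld and tio also held the shorter GAGAG.

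Weak promoter peaks sat on DNA richer in G and C than saturated ones. The median G + C content within 50 bp of the summit was 43.6% in weak promoter peaks (quartiles 35.6 and 51.5, n = 3536) and 32.7% in saturated promoter peaks (25.7 and 43.6, n = 3620). It was 37.6% (29.7 and 45.5) in windows of the same length centred 100 bp upstream of the start of each of the 18164 genes. Away from promoters the medians were 39.6% for weak and 29.7% for saturated peaks. Among summits 51 to 200 bp upstream of a start, where the position was alike, the medians were 42.6% (n = 763) and 29.7% (n = 1289). The order was the same in each replicate's own list, at 43.6% and 29.7% in replicate 1 and at 43.6% and 37.6% in replicate 3. No test was run on base composition.

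**Figure D1:**
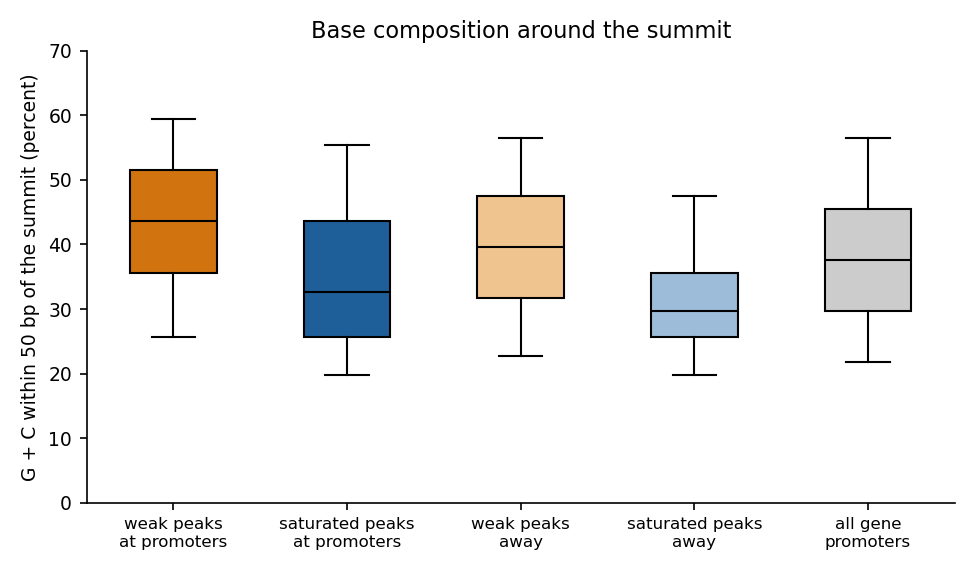
G + C content within 50 bp of each summit, in percent, for weak and saturated pooled peaks at and away from promoters and for windows upstream of all genes. Boxes show quartiles with the median as a line and whiskers the 5th and 95th percentiles; the weak promoter box, with a median of 43.6%, stands highest and the saturated boxes stand lowest.

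TATAAA, the core of the TATA box, was the word whose share differed most between weak and saturated promoter peaks. It lay within 50 bp of the summit in 11.4% of weak promoter peaks (403 peaks, 95% exact interval 10.4 to 12.5), in 22.5% of saturated promoter peaks (815 peaks, 21.2 to 23.9) and in 17.8% of the windows of all gene promoters. The GATA words AGATAA and TGATAA were also less frequent in weak than in saturated promoter peaks, with 5.32% and 6.56% against 7.90% and 8.95%, and stood in 7.87% and 9.49% of all promoters. Repeats went the other way. GAGAG stood in 18.7% of weak (661 peaks), 13.3% of saturated (481 peaks) and 12.9% of all promoters, GAGAGAG in 4.95%, 3.29% and 2.97%, and CACACACA in 5.06%, 2.62% and 1.71%. The E-box CAGCTG stood in 5.60% of weak and 3.59% of saturated promoter peaks, against 4.65% of all promoters. Away from promoters each of these words differed in the same direction, so the differences were not particular to promoters. There TATAAA stood in 15.3% of weak and 25.3% of saturated peaks, and GAGAG in 12.3% and 8.66%. These words differ in base composition as the peaks do, and the shares were not adjusted for it.

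The elements of broadly expressed genes had shares at the summits near or below those in promoters at large. TATCGATA, the DRE, stood in 1.87% of weak promoter peaks (66 peaks, 1.45 to 2.37) and 1.24% of saturated ones (45 peaks, 0.908 to 1.66), against 2.15% of all promoters. GGTCACAC, the core of Motif 1, stood in 1.30%, 1.08% and 1.12%. CACGTG stood in 1.10% of weak promoter peaks and 1.11% of all promoters, and CAGGTAG, bound by Zelda, in 0.481% and 0.633%. Away from promoters the DRE was found in 0.179% of the weak peaks. CGATA, the shorter word within it that BEAF-32 also binds, stood in 15.8% of weak promoter peaks and 19.1% of all promoters. CATTAAA, a word like those bound by Hox proteins, stood in 2.88% of weak and 4.56% of saturated promoter peaks. For the nuclear receptor word AGGTCA these shares were 1.499% and 1.60%, for the AP-1 word TGACTCA 0.962% and 0.608%, and for the ETS word CCGGAAG 0.424% and 0.387%. The STAT word TTCNNNGAA stood in 2.52% and 2.65%. For the heat shock word TTCNNGAA it was 2.77% and 2.49%, and for GCCATNTT, bound by Pho, 1.92% and 1.74%. CGATA is contained in TATCGATA and GAGAG in GAGAGAG, so these counts overlap. For the words of this and the preceding paragraph, the windows of all promoters were centred 100 bp upstream of the start. They were not matched to the summits in position.

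Within the promoter, weak summits lay less often upstream of the start and more often in an exon. The median position was 15 bp upstream of the nearest start for weak and 113 bp upstream for saturated promoter peaks. Of the weak promoter peaks 53.3% lay upstream of the start, against 73.0% of the saturated (odds ratio 0.422, 95% interval 0.382 to 0.465, two-sided Fisher exact test, adjusted p = 8.3e-67). Upstream positions made up 45.3% of all bases within 500 bp of a start. The summit lay in an annotated exon in 44.2% of weak and 26.8% of saturated promoter peaks (odds ratio 2.16, Fisher exact test, adjusted p = 4e-53). Side of the start and exon overlap as features, since a summit past the start can lie in the first exon. They are not separate results. The stretch from 51 to 200 bp upstream held 21.6% of weak and 35.6% of saturated summits, on 15.6% of the bases. The 100 bp around the start held 21.6% and 15.6%, on 12.5% of the bases. Peaks of 1 list are not independent replicates, so these p-values and intervals cover counting error only.

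**Figure D2:**
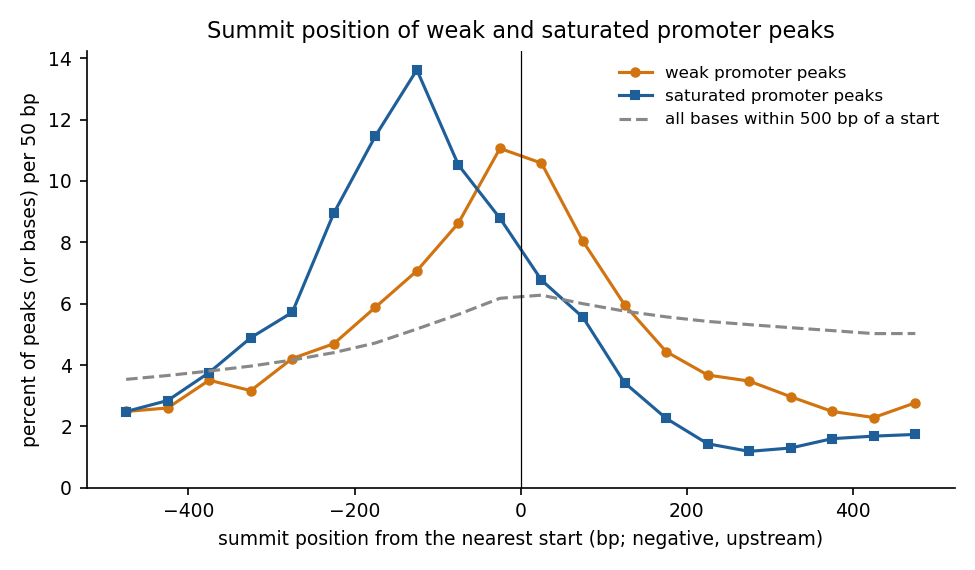
Summit position relative to the nearest transcript start in bins of 50 bp (x axis in bp, upstream negative) against the percent of peaks per bin, with the share of all bases within 500 bp of a start as a dashed line. Weak promoter peaks were most frequent in the bin ending at the start, with 11.1%, and saturated ones 100 to 150 bp upstream, with 13.6%.

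The share of summits within 100 bp of a start differed between weak and saturated peaks in opposite directions in the replicates. In the pooled list 38.4% of weak and 31.7% of saturated promoter peaks lay within 100 bp of a start (odds ratio 1.34, Fisher exact test, adjusted p = 3.2e-09), while such positions made up 24.2% of promoter bases. In the list of replicate 1 alone the odds ratio was 1.86 (34.3% against 21.9%, Fisher exact test, adjusted p = 2.1e-26), and in that of replicate 3 alone it was 0.880 (38.7% against 41.8%, adjusted p = 0.0033), in the opposite direction. The differences in side of the start and in exons kept their direction in both lists, with odds ratios for upstream of 0.338 in replicate 1 and 0.559 in replicate 3.

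Starts of 2 or more genes lay within 500 bp of 18.8% of weak and 30.1% of saturated promoter peaks (odds ratio 0.538, Fisher exact test, adjusted p = 2.1e-28). The nearest start belonged to a gene that is not protein-coding in 16.6% of weak and 11.2% of saturated promoter peaks (odds ratio 1.58, Fisher exact test, adjusted p = 4.2e-11). The X chromosome held 22.2% of weak and 19.5% of saturated promoter peaks (odds ratio 1.18, Fisher exact test, adjusted p = 0.0052), and this difference did not pass the test in replicate 1 alone, with an odds ratio of 1.11 and an adjusted p of 0.13 against 1.22 in replicate 3. The 6 location features tested were adjusted together by the method of Benjamini and Hochberg.

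Both replicates went into the pooled list, so their support for its peaks is a description and not a test. Of the weak promoter peaks, 72.4% (2560 peaks, 95% exact interval 70.9 to 73.9) overlapped a peak of replicate 1 by at least 1 bp, against 87.9% of all pooled peaks. In replicate 3 it was 86.5% (3058 peaks, 85.3 to 87.6), against 83.1% of all pooled peaks. Weak peaks away from promoters had the opposite order, with 84.9% in replicate 1 and 70.6% in replicate 3. At promoters 2165 weak peaks (61.2%) had a match in both replicates, 395 (11.2%) in replicate 1 alone, 893 in replicate 3 alone and 83 (2.35%) in neither. Of the saturated promoter peaks, 90.3% had a match in replicate 1 and 98.0% in replicate 3.

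**Figure D3:**
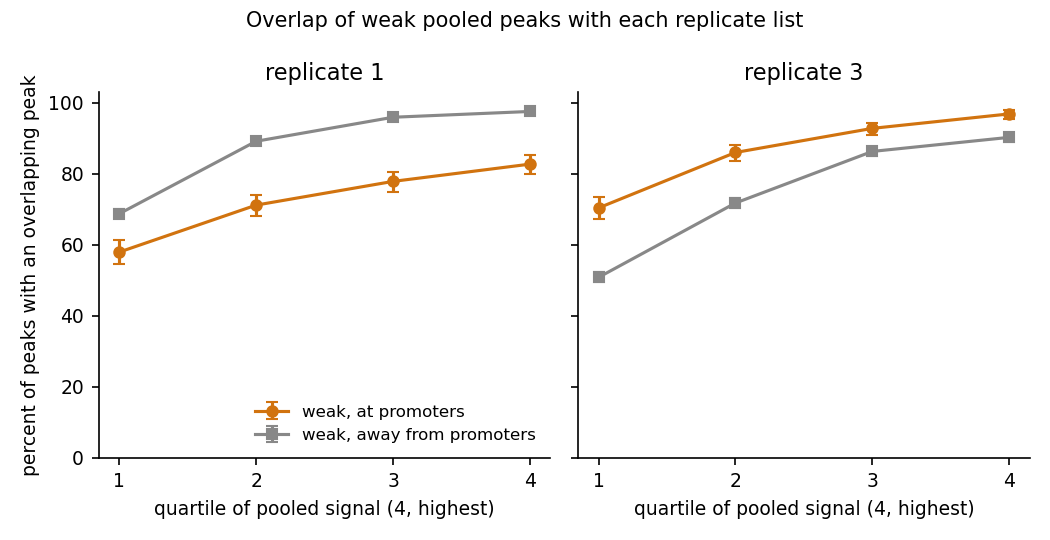
Percent of weak pooled peaks with an overlapping peak in replicate 1 (left) and replicate 3 (right), by quartile of pooled signal from lowest (1) to highest (4), at promoters and away from them; bars are 95% exact intervals. In every quartile the promoter peaks lie below the others in replicate 1 and above them in replicate 3.

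Support was higher at higher pooled signal. The authors' signal of the weak promoter peaks ran from 26.3 to 127.3 with a median of 59.8, against a median of 317.8 in the saturated ones. The −log10 q-value of the weak promoter peaks ran from 0.304 to 3.90 with a median of 1.28. No lower limit on it was set, so many members are poorly supported by their own q-value. From the lowest to the highest quartile of signal the overlap with replicate 1 went from 57.9% to 82.7% and that with replicate 3 from 70.4% to 96.8%. In the highest quartile 58.3% of the members overlapped a peak that was saturated in replicate 3 itself, and 6.67% one saturated in replicate 1. Over all members, these shares were 28.8% and 6.82%, against 43.0% and 35.1% of all pooled peaks. Each list has its own cap on the −log10 q-value, and peaks at the cap reached to lower ranks in replicate 3. There the peak at CG11109 was saturated at rank 13002, while in replicate 1 that at Ir67c was not at rank 10135. Away from promoters the highest quartile had an overlap of 97.5% with replicate 1 and 90.2% with replicate 3.

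The order of the members was much less alike between replicates than that of saturated peaks. Among the 2165 weak promoter peaks with a match in both, the Spearman correlation of the signals of replicates 1 and 3 was 0.20, against 0.83 for 3204 saturated promoter peaks and 0.32 for 8675 weak peaks away from promoters. These are correlations across peaks of 2 libraries called against 1 control, and the narrow range of the weak signals was set by the selection. The median rank was 17165 in replicate 1 and 16144 in replicate 3, of 30000 peaks each. The summit of the matching peak lay a median of 37 bp away in replicate 1 and 28 bp in replicate 3, against 10 bp in both for saturated promoter peaks.

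The members seen in only 1 replicate differed in place. The 893 with a match in replicate 3 alone lay within 100 bp of a start in 51.9% (95% exact interval 48.5 to 55.2), had starts of 2 or more genes nearby in 25.4% (22.6 to 28.4), and were nearest to a noncoding gene in 11.1% (9.10 to 13.3). The 395 with a match in replicate 1 alone had 23.3% (19.2 to 27.8), 9.11% (6.46 to 12.4) and 28.6% (24.2 to 33.3). Members seen in both stood between, with 36.0%, 18.4% and 16.4%. Median G + C content was 44.6% in replicate 3 alone and 41.6% in replicate 1 alone. The 83 members with no match reached a signal of at most 64.2 with a median of 31.1.

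Of 18164 annotated genes, 2146 were reached only by weak peaks, which is 11.8%. A gene counts as reached when a summit lay within 500 bp of a start, however low the −log10 q-value of the peak. A saturated summit lay within 500 bp of a start of 3990 genes (22.0%), of which 1213 had a weak summit as well, and 12028 genes had no pooled summit. The 2146 genes were served by 1825 strongest summits, since 593 of them shared theirs with another such gene, and 2274 of the 3536 members lay at them. The other 1262 members lay only at genes that also had a saturated summit. Among the weak-only genes, a summit within 500 bp of a start was found for 1382 (64.4%) in the list of replicate 1 and for 1773 (82.6%) in that of replicate 3. It was saturated for 33 genes in replicate 1 and for 627 in replicate 3, where saturated peaks reached to lower ranks. Among genes with no pooled summit, 3.77% had one in replicate 1 and 14.6% in replicate 3.

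The genes with the strongest weak peaks were of varied function. Here and below, signals are comparable within a list only, and a difference between lists is not a measured difference in enrichment. Hs6st shares its summit with MED25, which encodes a Mediator subunit. The pooled signal was 127.3 there, while replicate 1 had 52.0 (rank 14813) and replicate 3 had no match. At zld the pooled signal was 127.2, with 60.9 (rank 13430) in replicate 1 and 70.1 (rank 11146) in replicate 3. It was thus present in both, and saturated in replicate 3. PH4alphaEFB, which encodes a prolyl hydroxylase of collagen, had 22.1 (rank 25577) in replicate 1 and 110.3 (rank 7468) in replicate 3, so its ranks were far apart. The RhoGAP gene cv-c had 53.4 (rank 14585) and 61.5 (rank 12342), and AhcyL1 40.1 (rank 17568) and 83.9 (rank 9561). lncRNA:CR46095 ranked higher in replicate 1, with 87.7 (rank 10402) against 45.4 (rank 15495).

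Several of the strongest weak peaks were absent from replicate 1. The summit shared by CG10353 and the selenoprotein gene SelG had a signal of 72.4 (rank 10855) in replicate 3 and no match in replicate 1. The same held for the summit of ATPsynG, an ATP synthase subunit, and SCAR, an activator of the Arp2/3 complex (69.1, rank 11286). It held too for that of Phax, an adaptor for snRNA export, and Mys45A (84.9, rank 9447), and for that of CG11109, asRNA:CR45969 and the small GTPase gene Arf1 (57.4, rank 13002). Of these genes Arf1 was not weak-only, as a saturated summit also lay within 500 bp of one of its starts. These 4 summits each lay within 500 bp of starts of 2 or more genes, and all were saturated in replicate 3. At the other end, the lowest signals at weak-only genes were 26.4 at Lip2, with no match in either replicate, and 26.3 at lncRNA:CR45733 and lncRNA:CR43930 and at asRNA:CR45366.

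Genes of general cell function were, like all genes, mostly reached by saturated peaks or not at all. Over all genes 22.0% had a saturated peak and 66.2% no pooled summit. The weak-only shares of these lists lay on either side of the 11.8% of all genes. The 86 cytoplasmic ribosomal protein genes had 65 with a saturated and 6 with only weak peaks, and the 73 mitochondrial ribosomal protein genes 26 and 6. RpS24 (pooled signal 114.3) had a match in replicate 3 alone, with a signal there of 91.8, and RpL38 (102.6) in replicate 1 alone, with 88.4. Of 48 proteasome genes 9 had a saturated and 5 only weak peaks. Rpn9, Prosbeta1 and Prosbeta7, with pooled signals of 124.5, 88.3 and 87.0, were matched in replicate 3 alone. Of 53 translation factor genes 18 and 8 were reached, the latter led by eIF4E1, the cap-binding factor (107.2), and eIF3g1 (97.7), both found in replicate 3 alone, and by eIF4B (94.6), found in replicate 1 alone. Aminoacyl-tRNA synthetases had 12 and 3 of 33, with LeuRS-m, the mitochondrial leucyl enzyme, at 34.0 in replicate 1 and 56.0 in replicate 3.

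The respiratory chain and vesicle traffic lists held 15 and 19 weak-only genes, and no test was run on their shares. Of 88 genes of oxidative phosphorylation, 15 were reached only by weak peaks (17.0%, 95% exact interval 9.87 to 26.6, which held the 11.8% of all genes) and 14 by a saturated one. They belonged to complex I (ND-B22, ND-AGGG, ND-B17.2, ND-18 and ND-75), succinate dehydrogenase (SdhB and SdhD), complex III (UQCR-C1, UQCR-C2 and RFeSP), cytochrome oxidase (COX5B, COX7C and COX7AL2) and ATP synthase (ATPsynG and ATPsynD). All 15 had a match in replicate 3 and 8 had one in replicate 1, against 85.5% and 62.2% of all protein-coding weak-only genes. At COX7C the signal was 42.0 (rank 17057) in replicate 1 and 77.2 (rank 10279) in replicate 3, and at ND-B22 32.0 (rank 20142) and 74.0 (rank 10673). Of 92 genes for vesicle coats, tethers and Rab GTPases, 19 were weak-only (20.7%, exact interval 12.9 to 30.4) and 35 saturated. Again all 19 had a match in replicate 3 and 11 in replicate 1, beside the same shares over all protein-coding weak-only genes. The Rab genes were Rab6, Rab7, Rab10, Rab14, Rab18, Rab19, Rab21, Rab23, Rab27, Rab32 and Rab35. Rab6 of the Golgi had 23.7 in replicate 1 and 101.8 in replicate 3, Rab7 of late endosomes 52.7 in replicate 3 alone, and epsilonCOP of the COPI coat 58.9 and 56.7. Of 20 autophagy genes 10 had a saturated and 4 only weak peaks, among the latter the kinase gene Atg1 (43.7 and 85.8) and Atg6 (48.3 and 94.4).

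**Figure D4:**
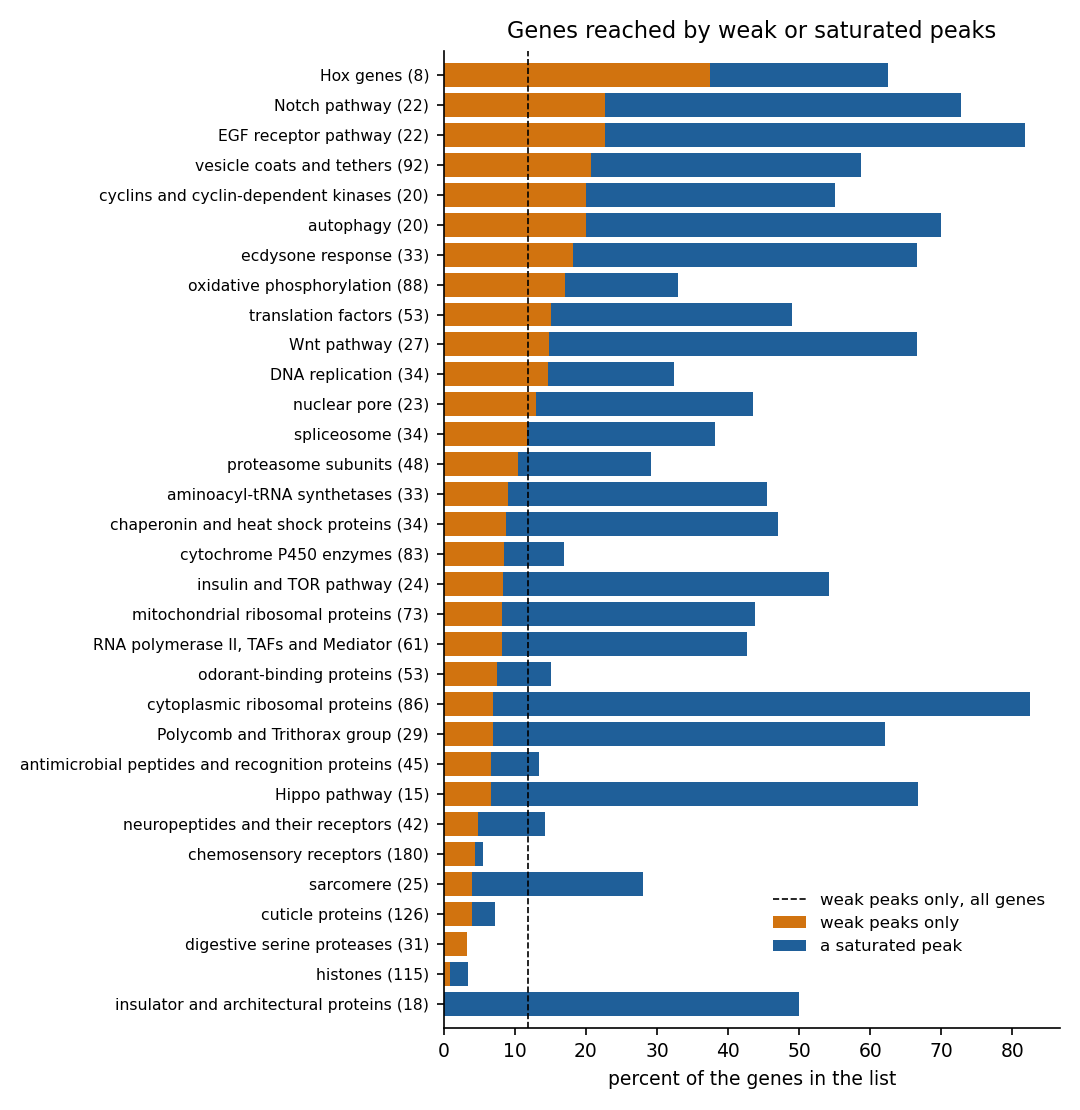
Percent of the genes of each of 32 lists (size in brackets) reached only by weak pooled peaks (orange) and by a saturated one (blue), with the weak-only share of all genes, 11.8%, as a dashed line. Weak-only shares run from 0 of 18 insulator protein genes to 3 of 8 Hox genes, and the saturated shares vary more widely than the weak-only ones.

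Nuclear and cell cycle genes gave small counts, and the exact intervals of their weak-only shares held the 11.8% of all genes. Weak-only genes numbered 5 of 34 in DNA replication (14.7%), 4 of 34 in the spliceosome (11.8%), 5 of 61 among subunits of RNA polymerase II, its TAFs and Mediator (8.20%), 3 of 23 in the nuclear pore (13.0%), and 4 of 20 among cyclins and their kinases (20.0%). Psf1, a GINS subunit of the replicative helicase, had signals of 58.8 in replicate 1 and 60.0 in replicate 3, and PCNA, the sliding clamp, 28.5 and 20.8. The summit between snf, a U1 and U2 snRNP protein, and Cdk7, the kinase of TFIIH, had 46.2 and 68.4. Of 29 Polycomb and Trithorax group genes 16 had a saturated peak and only osa and Sce weak ones alone, and of 18 insulator protein genes 9 had a saturated peak and 0 weak ones alone. Of 34 chaperonin and heat shock genes 13 had a saturated peak and 3 only weak ones. Of these Hsf, the heat shock factor, was found in replicate 3 alone (63.3), as was Hsp67Ba (65.1), while Hsp67Bc had 25.6 and 32.2.

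Of 33 genes of the ecdysone response, which drives metamorphosis, 16 had a saturated peak and 6 only weak ones. The 6 were ImpE1, the nuclear receptor genes Hr4, Hr38 and Hr3, Cyp18a1, which encodes the enzyme that inactivates ecdysteroids, and Blimp-1, a repressor that times the response. ImpE1 had signals of 44.0 in replicate 1 and 63.9 in replicate 3, Hr4 34.2 and 63.8, and Hr38 21.0 and 66.1. The first 5 had matches in both replicates, and Blimp-1 in replicate 1 alone. The list had 18.2% of its genes weak-only, on 33 genes, with an exact interval of 6.98 to 35.5 that held the 11.8% of all genes.

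In each of 5 signalling pathway lists more genes had a saturated peak than only weak ones, as over all 18164 genes, of which 3990 had a saturated peak and 2146 only weak ones. The weak-only share was 22.7% in the Notch and EGF receptor lists, 14.8% in the Wnt list, 8.33% in the insulin and TOR list and 6.67% in the Hippo list, and the exact interval of each held the 11.8% of all genes. The Notch list had 11 genes with a saturated and 5 with only weak peaks of 22. The weak-only ones were Ser, a ligand, fng, which glycosylates the receptor, and 3 genes of the E(spl) complex of Notch targets, E(spl)m5-HLH, E(spl)mgamma-HLH and E(spl)m8-HLH. Ser had 26.7 in replicate 1 and 29.6 in replicate 3, fng 90.1 in replicate 3 alone, and E(spl)m5-HLH 24.2 in replicate 1 alone. The EGF receptor list had 13 and 5 of 22, the latter sty (an inhibitor, with 77.6 and 44.6), vn (a ligand, 56.3 in replicate 3 alone), Dsor1 and Raf (kinases of the cascade) and cnk (a scaffold). The Wnt list had 14 and 4 of 27, with arm (beta-catenin, 56.1 and 58.6), Wnt4, fz4 and Notum. The Hippo list had 9 and 1 of 15, the latter wts, its kinase (32.7 and 67.7). The insulin and TOR list had 11 and 2 of 24, the latter the kinase genes Akt (52.5 and 27.1) and Pi3K92E (21.2 and 37.4).

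Histone genes and lists of genes used in few tissues, apart from sarcomere genes, were seldom reached by either kind of peak. Of 180 chemosensory receptor genes 8 were weak-only (4.44%) and 2 had a saturated peak. They were Ir67c, Ir94f, Or67a, Or67d, Or65a, Gr93a, and Gr21a and Gr63a, which together form the carbon dioxide receptor. Ir67c had a pooled signal of 124.0 and 91.0 in replicate 1 (rank 10135), Ir94f 107.2 and 74.5, neither with a match in replicate 3, and Or67a 75.7 in replicate 1 and 33.6 in replicate 3. Of 126 cuticle protein genes 5 and 4 were reached, with Cpr65Ea at 60.6 and 30.2. Of 83 cytochrome P450 genes 7 and 7 were reached, the weak-only ones with the highest pooled signal being Cyp9c1 (21.9 in replicate 1 and 105.4 in replicate 3), Cyp4g15 (29.3 in replicate 1 alone) and Cyp4d20 (73.6 in replicate 1 alone). PGRP-SA, a recognition protein of the Toll pathway, had 64.6 and 72.4, and the defensin gene Def 27.0 in replicate 1 alone. Odorant-binding proteins gave 4 and 4 of 53, sarcomere genes 1 and 6 of 25, histone genes 1 and 3 of 115, neuropeptides and their receptors 2 and 4 of 42, and digestive proteases 1 and 0 of 31. Values at near-identical copies of histone genes are uncertain, so a missing peak there need not mean missing binding.

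Of the 8 Hox genes, which set segment identity, Scr, abd-A and lab were reached only by weak peaks and 2 others by a saturated one. The weak-only share was 37.5%, with an exact interval of 8.52 to 75.5 that held the 11.8% of all genes. None of the first 3 had a match in replicate 3, where 83.6% of all weak-only genes had one. Scr had a pooled signal of 88.1, with 46.9 (rank 15835) in replicate 1 and a summit 191 bp upstream of its start. At abd-A the pooled signal was 74.98 and the matching peak of replicate 1 reached 105.9 (rank 9100), where it was saturated, with the summit 106 bp upstream. At lab the pooled signal was 54.9 with no match in either list. The sequence at lab is among those printed above.

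The lists differed in which replicate held the match. Over the 1594 protein-coding weak-only genes, the strongest weak peak had a match in replicate 1 for 62.2% and in replicate 3 for 85.5%. Proteasome genes had 1 of 5 and 5 of 5, translation factors 2 of 8 and 7 of 8, and nuclear pore genes 1 of 3 and 3 of 3. Cytoplasmic and mitochondrial ribosomal protein genes each had 4 of 6 and 5 of 6, a smaller gap than in the Wnt list (2 of 4 and 4 of 4) or the EGF receptor list (3 of 5 and 5 of 5). Chemosensory receptors had 7 of 8 in replicate 1 and 2 of 8 in replicate 3, cytochrome P450 genes 7 of 7 and 4 of 7, cuticle protein genes 5 of 5 and 4 of 5, and Hox genes 2 of 3 and 0 of 3. The counts are small and the lists were chosen with earlier results of these data known, so they are given as counts with no test.

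**Figure D5:**
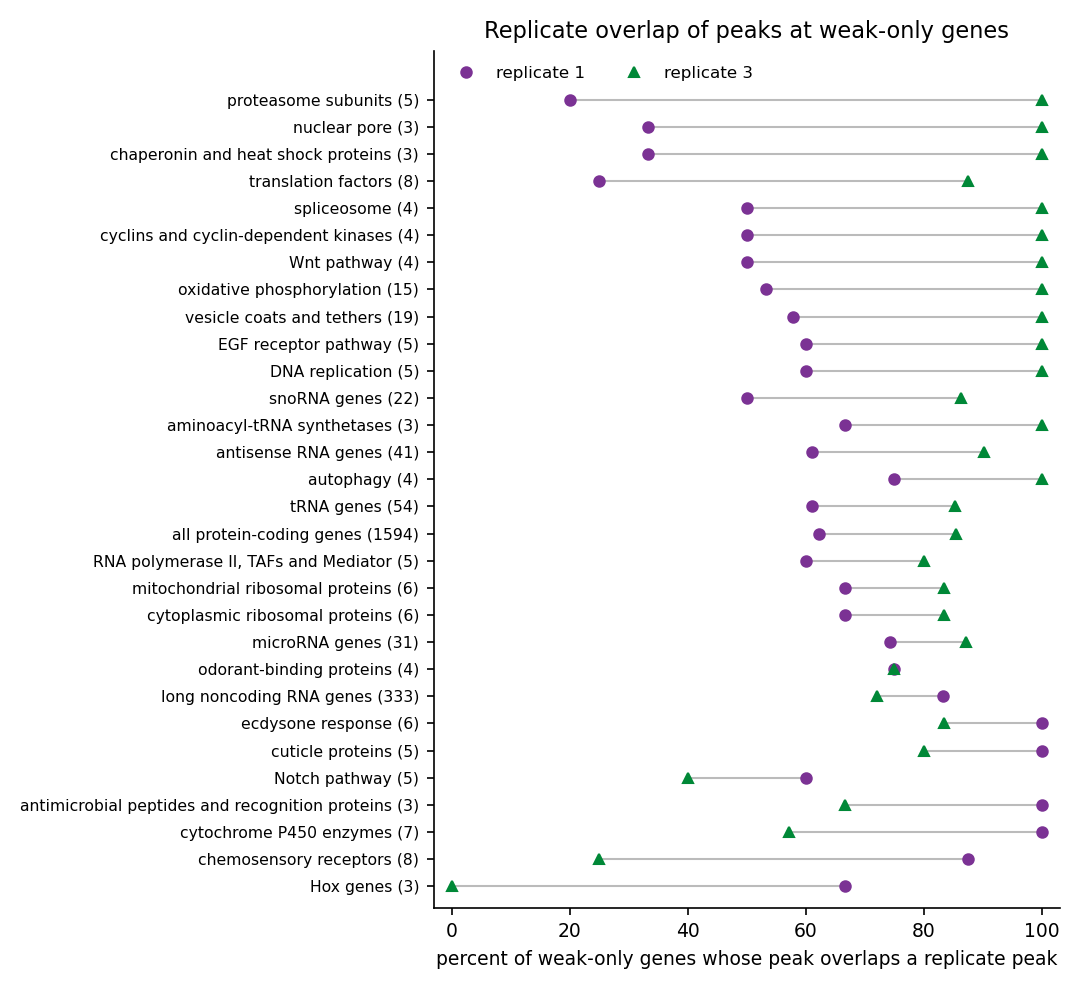
Percent of weak-only genes whose strongest weak peak overlaps a peak of replicate 1 (circles) or replicate 3 (triangles), for lists with 3 or more such genes and for gene biotypes (number in brackets), ordered by the difference. Proteasome, nuclear pore, chaperonin and translation factor genes lie toward the top, with the replicate 3 point to the right, and chemosensory receptors and Hox genes at the bottom, with the replicate 1 point to the right.

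By biotype, the weak-only share was 11.4% of 13945 protein-coding genes (1594 genes) and 14.2% of 3261 noncoding RNA genes (463 genes). Among the latter, those named as long noncoding RNAs had 17.1% (333 of 1944, 95% exact interval 15.5 to 18.9), antisense RNAs 8.15% (41 of 503) and microRNA genes 11.9% (31 of 260). For long noncoding RNAs the match was more often in replicate 1, with 277 against 240 of 333, and for antisense RNAs in replicate 3, with 37 against 25 of 41. lncRNA:CR44186 had 52.1 in replicate 1 and 86.9 in replicate 3, and lncRNA:CR33987, which shares its summit with tio, 47.3 in replicate 1 alone. mir-287 had 50.1 and 40.4, and mir-282 31.7 and 61.8. Of the remaining 58 noncoding genes, 50 were entries that Ensembl names by a transcript, many at the same place as a microRNA. Reads from a sense and an antisense gene cannot be told apart by ChIP.

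Small RNA genes of the translation and splicing machinery were reached too. Of 290 tRNA genes 54 were weak-only (18.6%, exact interval 14.3 to 23.6), by 37 summits, so that some genes shared a summit. Values at near-identical tRNA copies are uncertain. The summit of tRNA:Ser-TGA-1-1 and tRNA:Ser-TGA-2-1 had 97.8 (rank 8325) in replicate 3 and no match in replicate 1, and that of tRNA:Pro-AGG-1-7 had 74.4 in replicate 1 and 44.9 in replicate 3. Of 32 snRNA genes 5 were weak-only, among them snRNA:U7 of histone RNA processing (57.2 in replicate 3 alone), snRNA:U11 of the minor spliceosome (42.4 and 32.3) and snRNA:U1:21D (24.80 and 24.995). Of 269 snoRNA genes 22 were weak-only (8.18%), of 268 pseudogenes 8 (2.99%) and of 99 rRNA genes 0. The small noncoding genes often lie in introns of other genes, as snoRNA:Me28S-A1322 does beside the start of eEF1alpha1, so a summit near them can be near the host's start as well.

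The weak-only genes included 1026 protein-coding genes with a given name and 568 known by a CG number. RefSeq calls the product of 569 of them an uncharacterized protein, which is 9.33% of the 6101 genes so described. By words in RefSeq descriptions, 24 of 174 kinase genes were weak-only (13.8%) and 74 had a saturated peak. All 24 had a match in replicate 3 and 15 had one in replicate 1. Over all protein-coding weak-only genes these shares were 85.5% and 62.2%. Of 347 genes described as receptors 41 were weak-only (11.8%) and 29 saturated. Of 63 kinesin, dynein or myosin genes 12 were weak-only (19.0%, 10.2 to 30.9) and 10 saturated, and of 30 described as DNA-binding or transcription factors 7 and 11. Descriptions are incomplete, and the words were chosen after earlier results were known.

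The X chromosome had the highest weak-only share of genes, 16.3% of 2813 (458 genes, 14.9 to 17.7), against 10.2% to 12.7% on the major autosomal arms. Its saturated share was also higher, 25.1% against 20.4% to 22.9%. On chromosome 4 there was 1 of 118. A match in replicate 3 was found for 89.5% of the weak-only genes on X and a match in replicate 1 for 63.3%. Genes with more annotated starts have more chances of a summit nearby, and the weak-only share was 10.9% of genes with 1 start, 15.5% with 2, 16.0% with 3 and 13.5% with 4 or more. The saturated share over these classes was 16.3%, 35.9%, 54.0% and 69.9%.

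Some members were neighbours of saturated peaks. Of the 3536 members 673 (19.0%) overlapped a saturated pooled peak and 1320 (37.3%) had a saturated summit within 1000 bp, against 8.75% and 23.7% of weak peaks away from promoters. Of the 2146 weak-only genes, 1737 had no saturated summit within 1000 bp of any start. Most members, 95.4%, had the modal width of 424 bp, against 32.3% of saturated promoter peaks. At the boundary, the highest members were those at Hs6st (127.3) and zld (127.2), and the promoter peaks just above it lay at CG5065 (127.3) and Ktch (127.4), where Ktch had 76.1 in replicate 1 and no match in replicate 3. CG1663 itself, the tagged gene, had no pooled summit within 500 bp of a start, and the nearest was a saturated peak 1797 bp upstream with a signal of 244.7.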

How the data were processed

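Anti-GFP ChIP-seq of 2 biological replicates was analysed from the deposited narrowPeak lists of replicate 1, replicate 3 and the pooled alignments, on dm6 per the labels. Peaks were called against 1 control, per the file headers of the deposited README. Which aligner and caller were run, and at which IDR threshold, is not given in the sources used here. The deposited signal (column 7) is the caller's enrichment value and comparable within a list only. The deposited −log10 q-value (column 9) is capped in each list, and the authors' summit offset (column 10) was used as given. The list thresholded by IDR (irreproducible discovery rate) equalled the 9657 strongest pooled peaks and left out 2308 saturated ones.

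Starts came from Ensembl release 115 (BDGP6) without 5809 transposable element entries. All peak ends lay inside the arms of RefSeq's Release 6 genome. A gene was weak-only when its starts (23998 distinct ones over all genes) had a weak and no saturated summit within 500 bp. Location features were compared with two-sided Fisher exact tests and Benjamini-Hochberg adjustment at 0.05. Intervals are exact (Clopper-Pearson, 95%). The 19 words were searched on both strands. The steps were tested on simulated data. Tools were Python 3.11.15, numpy 2.4.6, pandas 2.3.3, scipy 1.17.1 and matplotlib 3.10.9. Named genes were the 10 strongest and 3 weakest peaks at weak-only genes, up to 3 of each list and biotype, 3 per kind of replicate support, those at the boundary and CG1663. Some genes that this rule names are not reported here. Other members of a list are named to complete it, chosen after their values were seen. The members, the 32 gene lists (7 members not matched), words and tests were chosen with earlier results of these data known. The alternatives were windows of 200 and 1000 bp, stricter overlaps, weak as outside the IDR list, and each replicate alone.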

Additional observations from a re-analysis of the deposited data

How the results depend on the processing

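The number of weak promoter peaks was 2185 with a window of 200 bp. Their overlap with replicate 1 was 63.2% when 50% of both peaks had to overlap, 52.2% for summits within 100 bp, 66.8% and 75.9% with windows of 200 and 1000 bp, and 74.3% for peaks outside the IDR list, and with replicate 3 it was 78.3%, 70.2%, 89.5%, 83.3% and 88.1%. Leaving out a replicate moved the odds ratio for lying within 100 bp of a start between 0.880 and 1.86, in opposite directions, and that for the X chromosome between 1.11 and 1.22. With a window of 1000 bp the latter was 1.07 (Fisher exact test, adjusted p = 0.17). The causes were not tested. The other 48 values of these results kept their direction and side of the threshold or stayed within 1.5 times. In the list of replicate 3 alone 2146 genes were weak-only, of which 1146 were the same genes as in the pooled list, and in that of replicate 1 alone 2280, of which 1349 were the same. Word shares within 100 bp of the summit were all higher, with TATAAA at 21.6% of weak and 36.2% of saturated promoter peaks. The DRE then stood in 3.48% of weak and 3.37% of saturated promoter peaks, against 5.92% of all promoters. For CGATA these shares were 27.9%, 27.7% and 35.6%. At this width the weak and saturated shares of both words were thus alike, and below those of all promoters. No paired analysis was possible because there was 1 group. Depth is unknown.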
